A study of Mus musculus with 17 samples.

Results

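The 10 genes described here build the class I major histocompatibility complex (MHC class I) and load it with peptide. They are the heavy chains *H2-K1*, *H2-D1* and *H2-T23*, their light chain *B2m*, the peptide transporter subunits *Tap1* and *Tap2*, the loading factor *Tapbp*, and the immunoproteasome subunits *Psmb8*, *Psmb9* and *Psmb10*. They were taken by name from the 38355 genes counted, and all 10 passed the filter on low counts in both comparisons. PolyA RNA of the hand-dissected hippocampus was sequenced in 17 libraries from untreated, wild-type C57BL/6J mice, an inbred strain of the b haplotype of the H2 locus. One experiment set 5 single-end libraries of mice aged 3 months (3M) against 6 of mice aged 24 months (24M), and another set 3 paired-end 3M libraries against 3 of mice aged 29 months (29M). Genotype, strain and treatment were the same in every group, so that age was the labelled difference within each experiment, whereas between 24M and 29M age and library type changed together. The 29M mice were bought as aged animals and then kept in the study's own rooms until use, and the labels tie no library to a litter, cage or day. P-values therefore measure the spread between these samples. In whole tissue, fewer cells of a type and less RNA per cell cannot be told apart.

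MHC class I molecules show peptides from proteins made inside a cell to CD8+ T cells at its surface. The proteasome cuts these proteins, the TAP transporter carries the peptides into the endoplasmic reticulum, and tapasin (*Tapbp*) holds the empty heavy chain with beta-2-microglobulin (*B2m*) next to the transporter until a peptide binds. Interferons raise the transcription of these genes through IRF factors, NF-kB and the transactivator *Nlrc5*, and let immunoproteasome subunits take the place of the constitutive catalytic subunits. In the healthy brain the pathway runs low in neurons, and microglia and blood vessel cells carry more of it.

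In all, 8 of the genes lie in the MHC on chromosome 17 (GRCm38, GENCODE annotation), spread over 2.117 Mb. *Psmb9*, *Tap1*, *Psmb8* and *Tap2* sit side by side within 34.34 kb, *Tapbp* (chr17:33915899-33929292) and *H2-K1* (chr17:33996017-34000347) lie on one side of them, and *H2-D1* (chr17:35262730-35267499) and *H2-T23* (chr17:36029773-36032855) on the other. *B2m* is on chromosome 2 (chr2:122147686-122153083) and *Psmb10* on chromosome 8 (chr8:105935735-105938444). The start sites of *Tap1* and *Psmb9* in RefSeq point away from each other with 225 bases between them, and their annotated exons overlap by 212 bases on opposite strands. The library kit does not mark the strand, so that reads in that overlap, and in the exons that *Tap2* and *Psmb8* share with transcripts annotated on the other strand, cannot be told apart.

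The promoters are shown because both classical heavy chains carry the same pair of motifs at the same spacing, and *B2m*, *H2-T23* and *Psmb8* carry others. RefSeq promoters (GRCm38.p6, from 250 bases before to 50 after the start site) were found for 9 of the 10 genes, and both strands were searched for GGGGATTCC (the NF-kB site of class I enhancer A), TGACGC (the core of the CREB-type element in the promoter module through which Nlrc5 acts), GAAANNGAA (the core of an interferon-stimulated response element) and TTCNNNGAA (a gamma-activated site). GGGGATTCC stood in the promoters of *H2-K1* and *H2-D1* and in 0.25% of the 32851 promoters listed. TGACGC stood in the same 2 genes and in 7.40% of promoters, 70 bases after the start of GGGGATTCC in both. In the lines below the motif is in capitals and each stretch reads 5′ to 3′ along its gene.
H2-K1, NF-kB site, chr17:34000440-34000468, minus strand: gcccagggctGGGGATTCCccatctccac
H2-D1, NF-kB site, chr17:35262913-35262941, plus strand: gcccagggctGGGGATTCCccatctcctc
H2-K1, CREB-type core, chr17:34000371-34000400, minus strand: tccggacactgtTGACGCgcagtcagctct
H2-D1, CREB-type core, chr17:35262981-35263010, plus strand: ccgggacactgaTGACGCgctggcaggtct
The first pair was identical at 28 of 29 bases and the second at 24 of 30. Over the 116 bases that hold both motifs, 105 were identical.

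The *H2-K1* stretch with both motifs in capitals (chr17:34000363-34000478, minus strand) shows their spacing.
H2-K1: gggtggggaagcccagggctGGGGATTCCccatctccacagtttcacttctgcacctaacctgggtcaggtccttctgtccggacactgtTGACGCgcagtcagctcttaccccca
GAAANNGAA stood in the promoters of *B2m* and *H2-T23* and in 8.56% of all promoters, and TTCNNNGAA in that of *Psmb8* and in 8.30%.
B2m, chr2:122147508-122147596, plus strand: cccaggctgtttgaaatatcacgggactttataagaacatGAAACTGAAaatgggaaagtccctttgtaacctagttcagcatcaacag
H2-T23, chr17:36032806-36032834, minus strand, motif on the other strand: tcctactgctTTCTCTTTCataaagacac
Psmb8, chr17:34198088-34198116, plus strand: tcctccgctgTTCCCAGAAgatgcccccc
A match describes letters and not a bound site. Only exact matches to each pattern were counted. A promoter without a match, those of *H2-K1* and *H2-D1* for GAAANNGAA among them, may therefore still hold a variant of the element. None of the 4 motifs was found in these windows for *Tap1*, *Tapbp*, *Psmb9* and *Psmb10*.

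The libraries held 9213474 to 28438296 reads counted on genes, with medians of 20289215 and 14363898 in the single-end groups (3M and 24M) and 12061193 and 11701706 in the paired-end groups (3M and 29M). Replicates 1 and 4 of 24M differed by less than the sampling noise, so that their rounded mean was counted as 1 sample, which leaves 5 at 24M. Hippocampus marker genes summed to between 1070 and 1481 CPM (the reads of a gene scaled to a common library total) in all groups. Striatum markers summed to 539.9 CPM in 3M single-end replicate 4 and to at most 259 CPM in every other library, and haemoglobin and other blood genes to 544.4 CPM in 24M replicate 2 and at most 189 CPM elsewhere. Reads shared between related genes limit some values. Of the 50-base windows of the longest transcript, 8.11% in *H2-K1*, 14.3% in *H2-D1*, 16.0% in *H2-T23*, 12.6% in *Tap2* and 21.0% in *Tapbp* occur in another gene too, mostly in other H2 genes for the heavy chains. At 100 bases these shares were 0% in *H2-K1* and 4.64% in *H2-D1*. *B2m*, *Psmb9* and *Psmb10* shared no window of either length.

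A library of the young group stands apart for this pathway. In 3M single-end replicate 2, *H2-K1* stood at 51.3 CPM against 21.8 to 26.2 CPM in the other 4 samples of its group, *Psmb9* at 3.95 against 1.33 to 1.63 and *Tap1* at 9.87 against 3.95 to 4.87. This library was the highest of the 5 for 9 of the 10 genes, where it was the highest for 13.1% of the 15683 genes tested. Its gap to the next sample took over 0.71 of the group's range for 6 of the 10 genes, and for 0.848% of all genes. Over the 10 genes, the median log2 ratio of this library to the median of the other 4 samples was 0.71, over the class II genes 0.87 and over the interferon-stimulated genes 0.51. Blood genes were higher in this library too, with a median of 0.54 and with replicate 2 the highest for 5 of 5, and border macrophage markers had 0.29. The median was 0.14 over microglia markers, 0.03 over hippocampus markers, -0.01 over neuron markers and 0.0016 over all genes. The part of these cells in the values of replicate 2 was not tested. *Nlrc5* stood at 3.33 CPM in it and at 0.51 to 1.05 CPM in the others. Replicate 2 carries the same label as the rest of its group, so that results of the 10 genes at 24M, and calls of other genes there that changed, are given with and without it. This library was singled out by its high values in these same genes. Leaving it out therefore raises the 24M fold changes of the genes high in it by construction. Such fits show how far the results depend on it and are no separate support for a rise.

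**Figure D1:**
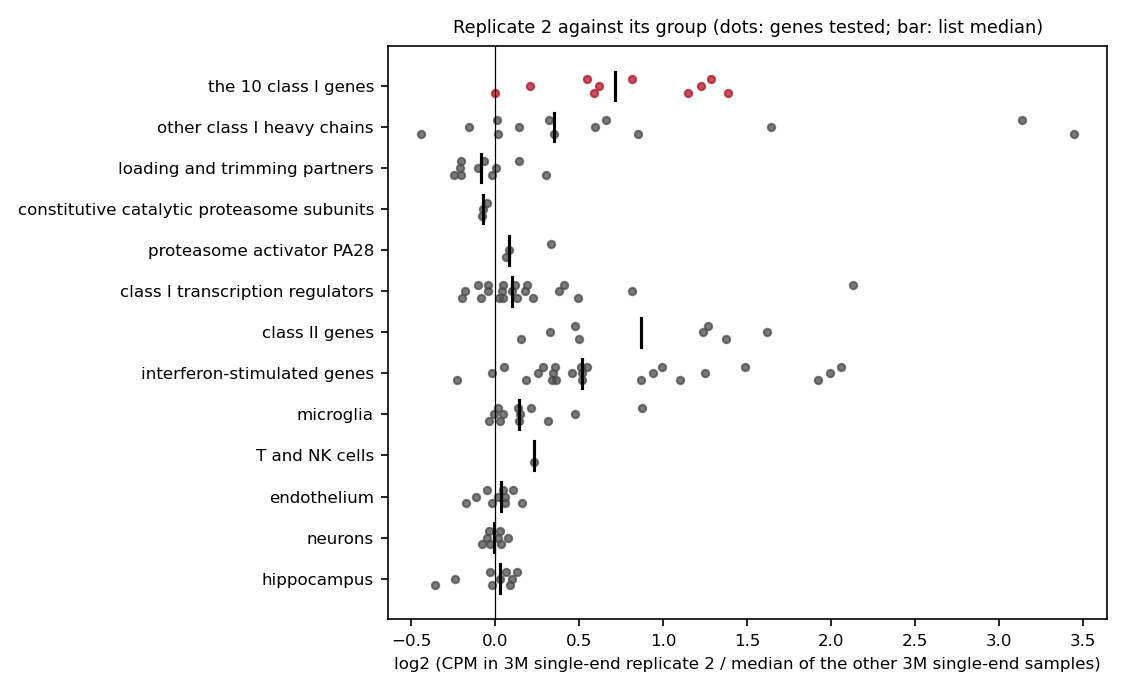
Log2 ratio of the CPM in 3M single-end replicate 2 to the median of the other 4 single-end 3M samples (x axis) for each gene of the lists on the y axis; dots are genes tested and bars list medians. The class I genes (red) have a median of 0.71 and the class II genes of 0.87, and neuron and hippocampus markers lie around 0.

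At 29M, 7 of the 10 genes were called higher than at 3M and none lower: *H2-K1*, *H2-D1*, *H2-T23*, *B2m*, *Tap1*, *Tap2* and *Psmb8*. To be called, a gene had to change by at least 0.5 on the log2 scale with an adjusted p no higher than 0.05, from the quasi-likelihood test of edgeR after Benjamini-Hochberg adjustment over all genes tested. By this rule 1.34% of the 15097 genes tested were called higher. DESeq2 called 5 of these 7. In 1 fit of all 4 groups none of the 7 passed (adjusted p from 0.0732 to 0.463, edgeR), with *H2-D1* at 0.91 ± 0.22 and *B2m* at 0.65 ± 0.18. The median log2 fold change of the 10 genes was 0.72, that of all genes -0.0021. At 24M, *B2m* was the called gene, 1 of 10, where 1.34% of the 15683 genes tested were called higher. The median of the 10 genes was 0.32 there. Without 3M replicate 2, 5 of the 10 were called higher at 24M (*H2-K1*, *H2-D1*, *B2m*, *Tap1* and *Psmb8*) beside 1.44% of genes tested, with a median of 0.67. The library left out was chosen by its high values in these genes, a choice that the share of all genes does not carry. With the 24M libraries kept apart, *H2-D1* joined *B2m*, beside 1.99% of genes called higher.

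**Figure D2:**
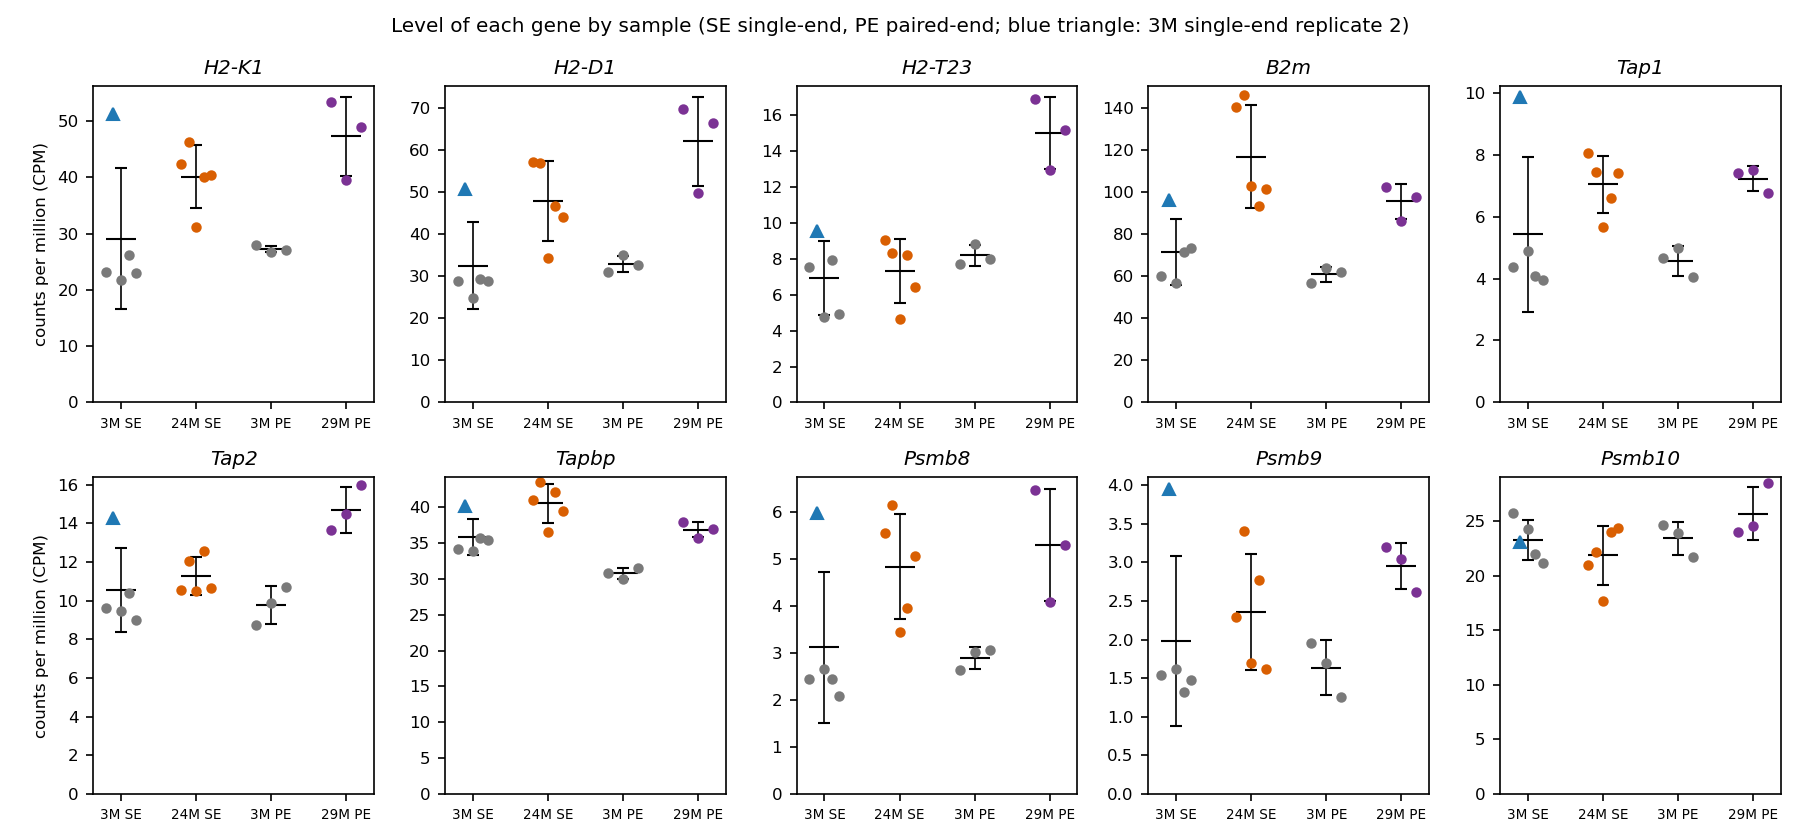
CPM of each gene (y axis, from 0) in each sample of the 4 groups (x axis; SE single-end, PE paired-end), with mean ± SD in black; the blue triangle is 3M single-end replicate 2. For 9 genes it is the highest of its group, and for the same 9 genes the 3 samples at 29M lie above the 3 at 3M.

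Of the heavy chains, *H2-K1* and *H2-D1* are the classical molecules that present peptide to CD8+ T cells. *H2-K1* stood at 27.9, 26.8 and 27.1 CPM in the 3M paired-end samples and at 53.4, 39.6 and 48.97 CPM at 29M. The groups did not overlap, and the log2 fold change was 0.80 ± 0.09 (SE, n = 3 against 3, adjusted p = 0.000447, edgeR). In the single-end samples it stood at 23.3, 51.3, 21.8, 26.2 and 22.98 CPM at 3M (replicates 1 to 5) and at 42.4 (mean of replicates 1 and 4), 46.4, 31.1, 40.2 and 40.5 CPM at 24M. All 24M samples lay above 4 of the 5 samples at 3M and below the remaining one, replicate 2. The log2 fold change at 24M was 0.46 ± 0.21 (SE, n = 5 against 5, adjusted p = 0.176, edgeR), and 0.76 ± 0.10 (adjusted p = 0.00257) without that library.

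*H2-D1* behaved alike. It stood at 31.2, 35.0 and 32.7 CPM at 3M and at 69.9, 49.9 and 66.5 CPM at 29M, a log2 fold change of 0.91 ± 0.10 (SE, n = 3 against 3, adjusted p = 0.000374, edgeR). It was the largest of the 10 changes at that age, with no overlap between the groups. The single-end samples stood at 28.9, 50.7, 24.8, 29.5 and 28.9 CPM at 3M and at 57.1, 57.0, 34.5, 46.7 and 44.1 CPM at 24M. Again the 24M samples lay above every 3M sample but replicate 2, which lay above 3 of them. The log2 fold change was 0.56 ± 0.18 (SE, n = 5 against 5, adjusted p = 0.0801, edgeR), 0.76 ± 0.13 (adjusted p = 0.0091) without replicate 2, and 0.61 ± 0.17 (adjusted p = 0.0384) with the 24M libraries kept apart.

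*H2-T23* codes for Qa-1, a non-classical heavy chain that presents signal peptides of other class I chains to the NKG2 receptors of natural killer and T cells. It stood at 7.73, 8.84 and 8.003 CPM at 3M and at 16.9, 12.9 and 15.2 CPM at 29M, with no overlap (log2 fold change 0.87 ± 0.12 SE, n = 3 against 3, adjusted p = 0.00119, edgeR). At 24M its samples ranged from 4.64 to 9.04 CPM and those at 3M from 4.77 to 9.56 CPM. These groups overlapped, and the log2 fold change was 0.08 ± 0.21 (SE, n = 5 against 5, adjusted p = 0.843, edgeR), and 0.21 ± 0.21 (adjusted p = 0.555) without 3M replicate 2. Of the 10 genes, *H2-T23* and *Tap2* had an unadjusted p under 0.05 for the difference between the 29M and the 24M effect, and *H2-T23* had the wider gap, 0.79 ± 0.31 on the log2 scale. Neither passed adjustment (adjusted p = 0.406 for *H2-T23*, edgeR).

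*B2m*, the light chain that all class I heavy chains need to leave the endoplasmic reticulum, was called at both ages. It stood at 56.9, 63.8 and 61.9 CPM at 3M and at 102.6, 86.5 and 97.5 CPM at 29M (log2 fold change 0.65 ± 0.07 SE, n = 3 against 3, adjusted p = 0.00012, edgeR). Single-end samples held 60.0, 96.2, 56.6, 71.7 and 73.4 CPM at 3M and at 140.6, 145.9, 102.9, 93.3 and 101.6 CPM at 24M. The 29M samples did not overlap their 3M group, and at 24M a single sample, replicate 5, lay below 3M replicate 2. The log2 fold change at 24M was 0.71 ± 0.15 (SE, n = 5 against 5, adjusted p = 0.022, edgeR) and 0.83 ± 0.14 (adjusted p = 0.00729) without 3M replicate 2. The call at 24M did not stand without 24M replicate 2, without 3M replicate 1 or without the pair of replicates 1 and 4, with log2 fold changes of 0.62 to 0.84 over all alternatives and adjusted p up to 0.0644.

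Reads that fit several H2 genes were not counted by the authors, and a sum of the deposited counts does not bring them back. Counting the class I H2 genes as a single sum tests the counted reads without dividing them among these genes. The sum over 31 annotated class I H2 genes had a log2 fold change of 0.77 ± 0.08 (SE, adjusted p = 0.000168, edgeR) at 29M, and at 24M one of 0.42 ± 0.17 (adjusted p = 0.14). The sum was called at 24M too without 3M replicate 2, with 0.65 ± 0.11 (adjusted p = 0.00743, edgeR).

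**Figure D3:**
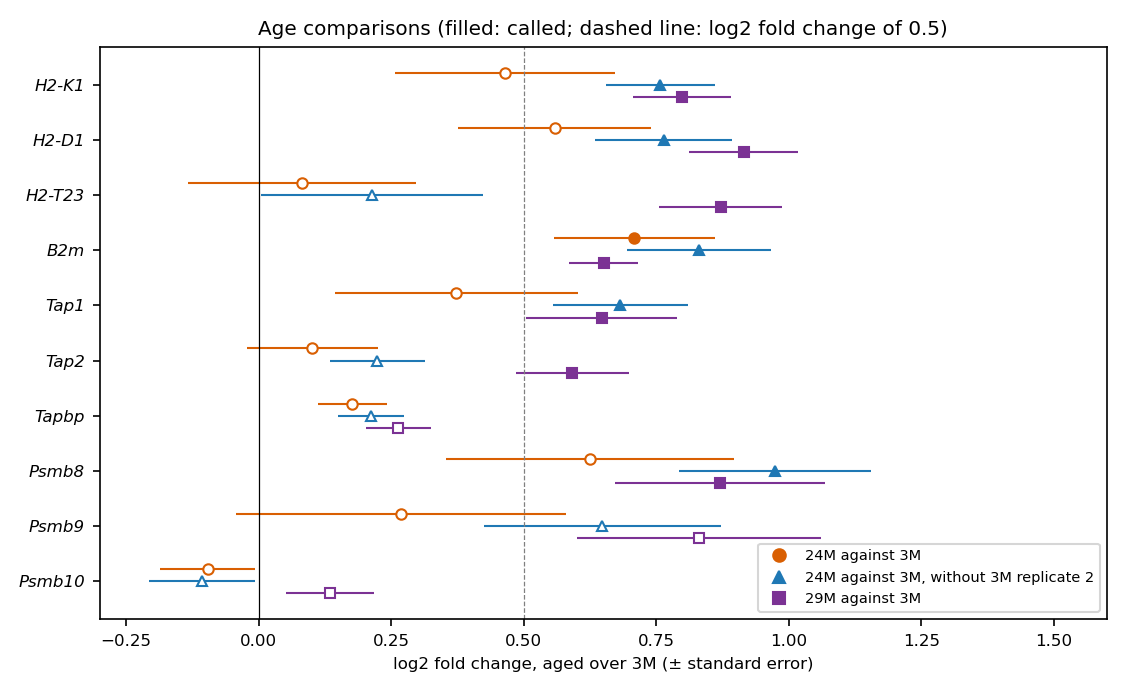
Log2 fold change of each gene, aged over 3M (x axis, with standard error), at 24M with all 3M samples (orange), at 24M without 3M replicate 2 (blue) and at 29M (purple); filled symbols were called, the dashed line marks 0.5. *H2-K1*, *H2-D1*, *Tap1* and *Psmb8* are called at 24M once replicate 2 is left out, with *H2-D1* and *Psmb8* above 0.5 either way, and *H2-T23* and *Tap2* remain below 0.25 at 24M.

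*Tap1* and *Tap2* code for the chains of the transporter that pumps peptides into the endoplasmic reticulum. *Tap1* stood at 4.67, 4.97 and 4.05 CPM at 3M and at 7.40, 7.51 and 6.76 CPM at 29M (log2 fold change 0.65 ± 0.14 SE, n = 3 against 3, adjusted p = 0.0262, edgeR). The single-end libraries held 4.37, 9.87, 4.87, 4.08 and 3.95 CPM at 3M and at 8.06, 7.44, 5.67, 6.62 and 7.42 CPM at 24M. The groups at 29M did not overlap, and at 24M every sample lay between 3M replicate 2 and the rest of the 3M group. The log2 fold change at 24M was 0.37 ± 0.23 (SE, n = 5 against 5, adjusted p = 0.321, edgeR) and 0.68 ± 0.13 (adjusted p = 0.015) without replicate 2. The call of *Tap1* at 29M was lost in DESeq2 (adjusted p = 0.156) and in 5 of the 6 fits that left out a paired-end library.

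*Tap2* stood at 8.74, 9.88 and 10.7 CPM at 3M and at 13.6, 14.5 and 16.0 CPM at 29M, with no overlap (log2 fold change 0.59 ± 0.11 SE, n = 3 against 3, adjusted p = 0.00797, edgeR). It was not called without 29M replicate 3. At 24M it ranged from 10.5 to 12.6 CPM, and at 3M from 8.99 to 10.4 CPM apart from the 14.3 CPM of replicate 2. The log2 fold change was 0.10 ± 0.12 (SE, n = 5 against 5, adjusted p = 0.637, edgeR) and 0.22 ± 0.09 (adjusted p = 0.154) without that library. *Tapbp*, the bridge between transporter and heavy chain, stood at 30.0 to 31.5 CPM at 3M and at 35.8 to 37.9 CPM at 29M. The groups lay apart, but the log2 fold change of 0.26 ± 0.06 was under the 0.5 required (SE, n = 3 against 3, adjusted p = 0.0349, edgeR). At 24M it was 0.18 ± 0.06 (adjusted p = 0.107), and 0.21 ± 0.06 (adjusted p = 0.076) without 3M replicate 2.

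The immunoproteasome subunits cut proteins in a way that favours ends able to bind class I grooves. *Psmb8*, the subunit LMP7, stood at 2.63, 3.01 and 3.06 CPM at 3M and at 6.48, 4.09 and 5.30 CPM at 29M (log2 fold change 0.87 ± 0.20 SE, n = 3 against 3, adjusted p = 0.032, edgeR). In the single-end samples it stood at 2.46, 5.98, 2.65, 2.45 and 2.08 CPM at 3M and at 5.56, 6.15, 3.45, 3.96 and 5.05 CPM at 24M. Every aged sample lay above all 3M samples other than replicate 2, which lay above 4 of the 5 samples at 24M. The log2 fold change at 24M was 0.63 ± 0.27 (SE, n = 5 against 5, adjusted p = 0.165, edgeR) and 0.97 ± 0.18 (adjusted p = 0.0147) without replicate 2. At 29M the call of *Psmb8* was lost in DESeq2 (adjusted p = 0.0969) and in 5 of the 6 fits that left out a paired-end library.

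*Psmb9*, the subunit LMP2, had the lowest level of the 10 genes. It stood at 1.95, 1.70 and 1.26 CPM at 3M and at 3.20, 3.04 and 2.62 CPM at 29M. The groups did not overlap, yet the log2 fold change of 0.83 ± 0.23 did not pass (SE, n = 3 against 3, adjusted p = 0.0754, edgeR). It passed when genes were kept from 1 count on (adjusted p = 0.0289). At 24M its log2 fold change was 0.27 ± 0.31 (SE, n = 5 against 5, adjusted p = 0.617, edgeR) and 0.65 ± 0.22 (adjusted p = 0.112) without 3M replicate 2. *Psmb10*, the subunit MECL-1, is encoded outside the MHC and was the gene among the 10 with the smallest absolute change at 29M, 0.13 ± 0.08 (adjusted p = 0.436, edgeR). It ranged from 21.2 to 25.8 CPM at 3M and from 17.7 to 24.4 CPM at 24M (log2 fold change -0.10 ± 0.09, adjusted p = 0.525, edgeR, and -0.11 ± 0.10 without 3M replicate 2), and it was the gene for which 3M replicate 2 (23.1 CPM) was inside the range of its group.

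No 24M sample set lay wholly above its 3M group for any of the 10 genes, against 3.15% of all genes tested. Without 3M replicate 2 it did so for 7 of the 10, all but *H2-T23*, *Psmb9* and *Psmb10*, against 4.41% of genes. That library was chosen by these genes and not by all genes, so that the 2 shares are not on equal terms. At 29M all 3 samples lay above all 3M samples for 9 of the 10, all but *Psmb10*, against 11.9%. Among the aged samples, 29M replicate 1 was the highest of its group for 7 of the 10 genes and for 32.3% of all genes tested. The 24M replicate 2, the library with the most reads of blood genes, was the highest for 5 of the 10 and for 18% of all genes. The 24M replicate 3 was the lowest for 8 of the 10 and for 27.4% of all genes.

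The 29M and the 24M effect did not differ beyond the test for any of the 10 genes (adjusted p from 0.403 to 0.95, edgeR), nor for any of the 16055 genes tested, of which 1674 had an unadjusted p under 0.05. The count of 0 changed when 3M single-end replicate 5 was left out: the difference then passed for 92 of 15961 genes, none of the 10 among them, and 2576 had an unadjusted p under 0.05. The 29M effect was the larger in 9 of the 10, *B2m* being the exception with a difference of -0.06 ± 0.22. Without 3M replicate 2 the difference for *Tap1* was -0.04 and that for *Psmb8* -0.11. The standard errors of these differences ran from 0.10 (*Tapbp*) to 0.48 (*Psmb9*).

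Exon length was taken over all annotated exons of a gene merged, which can be longer than any single transcript. The order of the genes may change with the length used. Per kilobase of exon, *B2m* was the most abundant of the 10 in every group. Its median level in the 3M paired-end group was 71.9 CPM per kb, followed by *Psmb10* at 14.1, *H2-D1* at 12.7, *H2-K1* at 9.21, *Tapbp* at 8.49, *H2-T23* at 2.77, *Tap2* at 2.61, *Psmb8* at 0.89, *Tap1* at 0.85 and *Psmb9* at 0.46. Neighbours in this order overlapped between samples for *Psmb10* and *H2-D1*, for *H2-T23* and *Tap2*, and for *Psmb8* and *Tap1*. At 29M, *B2m* stood at 113.4 CPM per kb, *H2-D1* at 25.8 and *H2-K1* at 16.7, with *Psmb10* at 14.4. *H2-D1* was above *Psmb10* in every 29M sample, and *H2-K1* and *Psmb10* overlapped. Among single-end samples the medians of the heavy chains were likewise behind *Psmb10* at 3M (13.6 CPM per kb against 11.2 and 7.92). They were ahead of it at 24M (13.04 against 18.1 and 13.8). In these libraries the ranges of the 3 genes over the samples overlapped at both ages. Such ranges do not give the order within a sample.

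Each immunoproteasome subunit was set against the constitutive subunit whose place it takes, *Psmb8* against *Psmb5*, *Psmb9* against *Psmb6* and *Psmb10* against *Psmb7*. The ratios are of CPM without regard to length, so that they are read between ages and not between subunits. In the paired-end samples, *Psmb8* stood at 2.97% to 3.72% of *Psmb5* at 3M and at 5.11% to 8.03% at 29M, and *Psmb9* at 1.72% to 2.62% of *Psmb6* at 3M and 3.68% to 4.6% at 29M. All 29M samples lay above all 3M samples for both ratios, with mean log2 ratios higher by 0.94 and 0.91 (pooled SD 0.26 and 0.25). *Psmb10* stood at 20.7% to 22.2% of *Psmb7* at 3M and at 23.5% to 26.9% at 29M, a shift of 0.20 (pooled SD 0.09). At 24M the groups overlapped for all 3 ratios. The mean log2 ratios differed by 0.82, 0.38 and -0.15 there, in the same order (pooled SD 0.48, 0.55 and 0.14), and by 1.09, 0.67 and -0.13 without 3M replicate 2. The log2 ratio of *Psmb8* to *Psmb5* was -2.93 to -2.34 at 24M, -3.8 to -3.595 in 4 samples at 3M and -2.29 in 3M replicate 2.

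The constitutive subunits themselves were not called at either age, 0 of 3, with log2 fold changes from -0.10 to 0.05 at 24M and -0.09 to -0.05 at 29M. *Psmb5* had a mean of 30.1 CPM in the single-end 3M samples and 85.4 CPM in the paired-end ones, and 57.1% of its 50-base windows occur in other genes, mainly processed copies, against 24.9% at 100 bases. The levels of this ratio are therefore not comparable between the library types.

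**Figure D4:**
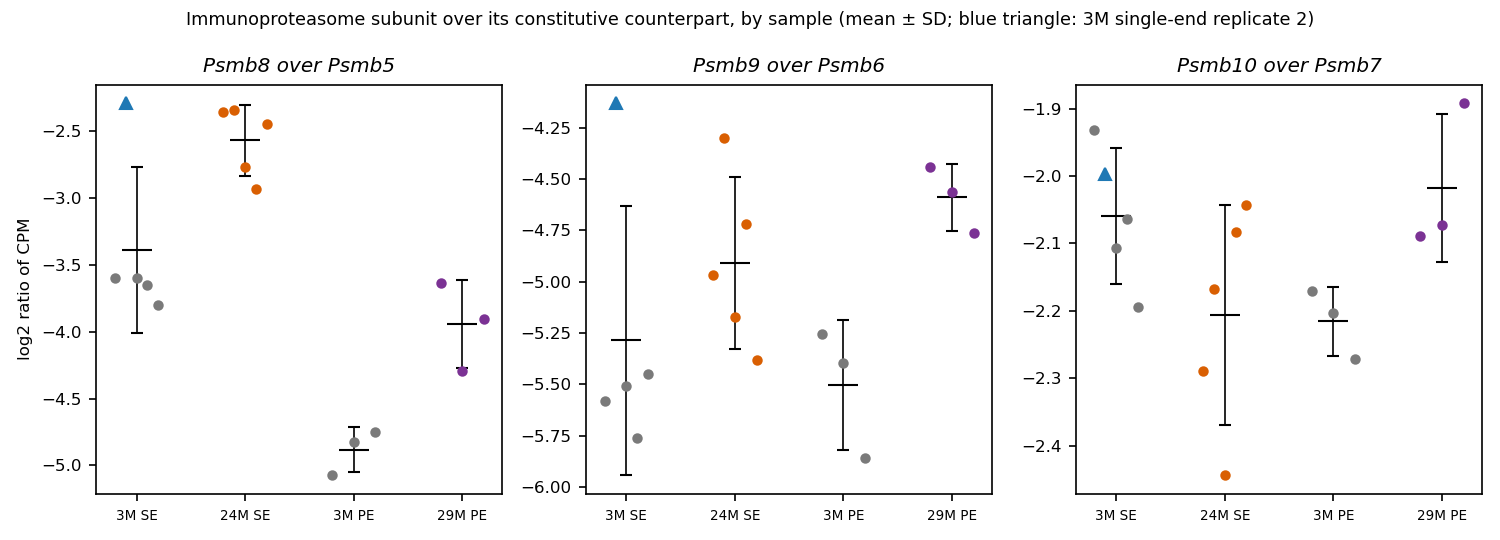
Log2 ratio of the CPM of each immunoproteasome subunit to its constitutive counterpart (y axis) in each sample of the 4 groups (x axis; SE single-end, PE paired-end), with mean ± SD; the blue triangle is 3M single-end replicate 2. The 29M samples lie above the paired-end 3M samples in all 3 panels, and in the first 2 panels replicate 2 is the highest single-end sample.

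Of the other class I heavy chains, 19 were listed and 11 tested at 29M. There 3 were called higher, beside 1.34% of all genes tested: *H2-Q4*, *H2-Q6* and *H2-Q7*, non-classical genes of the Q region. *H2-Q6* stood at 0.59, 0.72 and 0.81 CPM at 3M and at 5.30, 1.997 and 2.91 CPM at 29M (log2 fold change 2.26 ± 0.38 SE, n = 3 against 3, adjusted p = 0.00553, edgeR). *H2-Q7* rose by 2.302 ± 0.40 on the log2 scale (adjusted p = 0.00614, edgeR) and *H2-Q4* by 0.93 ± 0.19 (adjusted p = 0.0189). These 3 genes share 28.5% to 36.9% of their 50-base windows with other genes, each other among them, so that they are not independent measurements. At 24M none of the 13 tested was called. *H2-Q6* stood at 1.75 to 3.27 CPM there, at 0.20 to 0.79 CPM in 4 samples at 3M and at 5.98 CPM in 3M replicate 2. Without that library *H2-Q4*, *H2-Q6* and *H2-Q7* were called at 24M, at 0.87, 2.20 and 2.06 on the log2 scale, beside 1.44% of all genes called higher.

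*H2-T10* and *H2-T22*, which bind gamma delta T cell receptors and share 50.1% and 58.5% of their 50-base windows with other genes, were not called. *H2-T10* differed by 0.97 ± 0.27 at 24M (adjusted p = 0.0525, edgeR) and by 0.80 ± 0.34 at 29M on the log2 scale. That of *H2-T22* was 0.18 ± 0.10 at 24M and 0.34 ± 0.09 at 29M (adjusted p = 0.0512). *H2-T24*, *H2-M3* (which presents formylated peptides), *H2-M5* and *H2-Q1* did not pass at either age at which they were tested. The class I-like molecules outside the MHC did not pass either. Log2 fold changes, first at 24M and then at 29M, were 0.50 and 0.19 for *Mr1*, which presents vitamin metabolites, 0.37 and 0.07 for *Hfe*, a regulator of iron uptake, and 0.03 and 0.08 for *Fcgrt*, the neonatal Fc receptor. The lipid-presenting *Cd1d1* had -0.03 at 24M and was too low to test at 29M.

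The loading and trimming partners, with helpers that class I shares with other glycoproteins among them, were not called, 0 of 10 at either age. Their medians were -0.0014 at 24M and -0.03 at 29M on the log2 scale. The chaperone calreticulin (*Calr*) differed by -0.26 ± 0.07 at 24M (adjusted p = 0.0541, edgeR) and by -0.15 ± 0.04 (adjusted p = 0.0794) at 29M. Calnexin (*Canx*) had 0.09 and -0.04, the oxidoreductase *Pdia3* -0.07 and -0.03, the trimming peptidase *Erap1* 0.18 and 0.24, and the peptide editor *Tapbpl* 0.04 and 0.30. The proteasome activator PA28, which opens the proteasome and contains interferon-inducible subunits, was not called in any of its 3 genes. For *Psme1* the log2 fold changes were 0.09 and 0.07, at 24M and 29M in this order, and for *Psme2* they were -0.01 and 0.02.

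**Figure D5:**
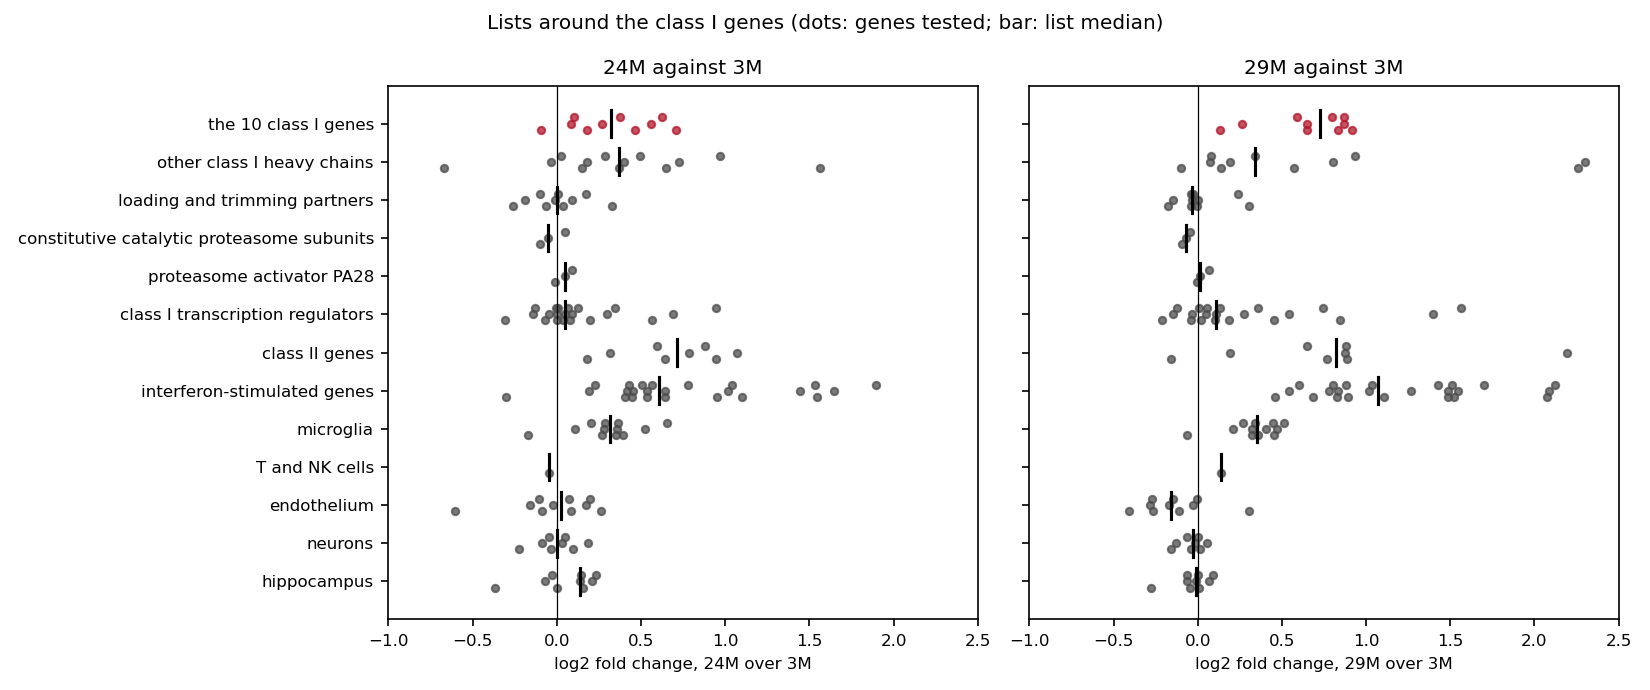
Log2 fold change, aged over 3M (x axis), of each gene tested in the lists on the y axis, at 24M (left) and 29M (right); bars are list medians. At 29M the class I genes (red) have a median of 0.72 and the interferon-stimulated genes of 1.07, while loading partners, constitutive proteasome subunits and PA28 lie around 0.

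Of 21 regulators of class I transcription, 5 were called higher at 29M, beside 1.34% of all genes tested. *Nlrc5*, the class I transactivator, stood at 1.02, 1.51 and 0.63 CPM at 3M and at 2.44, 3.61 and 2.69 CPM at 29M. Its groups did not overlap, and its log2 fold change was 1.39 ± 0.30 (SE, n = 3 against 3, adjusted p = 0.022, edgeR). The interferon-induced factors *Irf7* (1.56), *Irf8* (0.85) and *Irf9* (0.74) were called too, with these log2 fold changes. *Irf8*, which microglia also express, was the one called at 24M too (0.57). For *Nlrc5* the 24M samples gave 0.69 ± 0.42 (adjusted p = 0.319, edgeR), and it was called with 1.37 ± 0.25 (adjusted p = 0.0143) without 3M replicate 2. *Irf1*, the factor that interferon gamma induces on class I and immunoproteasome genes, had 0.09 ± 0.12 at 24M and 0.36 ± 0.13 at 29M (adjusted p = 0.178). The partners of *Nlrc5* on the promoter, *Rfx5*, *Rfxank* and *Rfxap*, had log2 fold changes from -0.21 to 0.05 over both ages and were not called, and neither were the NF-kB subunits *Nfkb1* and *Rela* (-0.14 to 0.11).

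Of 26 genes that respond to interferon, 24 were tested at each age. Of these, 18 were called higher at 29M (median log2 fold change 1.07) and 11 at 24M (median 0.60), beside 1.34% of all genes tested at either age. Without 3M replicate 2, 15 of 25 were called at 24M (median 0.86), beside 1.44% of all genes. This list was high in that library (median log2 ratio 0.51), so that leaving it out raises these values by construction. The 10 called at both ages were *Trim30a*, *Ifit1*, *Ifit3*, *Ifi27*, *Lgals3bp*, *Rtp4*, *Usp18*, *Bst2*, *Oasl2* and *Ddx58*, and among them the largest changes were those of *Usp18*, an interferon-induced brake on its own receptor, with 1.90 at 24M and 2.12 at 29M. *Oas2* was called at 24M (1.53) and was too low to test at 29M. *Ifih1*, *Gbp2*, *Gbp3*, *Gbp7*, *Irgm1*, *Xaf1*, *Ifitm3* and *Parp14* were called at 29M and not at 24M, with log2 fold changes of 0.78 to 1.26 at 29M. Of these, *Gbp2* (0.86), *Gbp3* (1.07) and *Irgm1* (0.65) were called at 24M once 3M replicate 2 was left out. So were *Ifit2* (0.51) and *Cxcl10* (2.44), the latter too low to test with that library in, while *Ddx58* was not called there (0.59 ± 0.15, adjusted p = 0.055, edgeR). *Gbp2*, a gene that interferon gamma induces, stood at 16.9 CPM in 3M replicate 2 and at 3.603 to 5.09 CPM in the other 3M samples.

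Class II genes, which present peptides from outside the cell to CD4+ T cells, numbered 10 listed and 8 tested. Of these, *H2-Aa* and *H2-DMb1* were called higher at 24M, and *H2-Aa*, *Cd74* and *H2-Ob* at 29M, beside 1.34% of all genes tested at either age. Without 3M replicate 2, *Cd74*, *H2-Ab1* and *H2-Eb1* joined the first 2 at 24M, beside 1.44% of all genes. *Cd74* stood at 17.7 CPM in replicate 2 and at 5.69 to 6.37 CPM in the other samples of its group. The median was 0.72 at 24M, 0.93 there without replicate 2, and 0.82 at 29M on the log2 scale.

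The cells that read class I were near the limit of detection. *Cd8a* and *Cd8b1*, the chains of the CD8 co-receptor, had no read in the 3 paired-end 3M libraries, which allows up to 3 reads in each, and 4 to 6 and 3 to 9 reads in the 3 libraries at 29M. Among single-end samples *Cd8a* had 0 to 2 reads at 3M and 2 to 11 at 24M. All of these counts were below the filter and were not tested. *Cd3e*, part of the T cell receptor complex, had at most 5 reads in any sample. Of 12 T and NK cell markers, *Lck* was the one tested, at -0.04 (24M) and 0.14 (29M) on the log2 scale. The 12 genes together summed to 1.68 to 3.90 CPM at 3M and 2.22 to 5.27 CPM at 24M, and to 2.29 to 3.42 CPM and 3.71 to 4.43 CPM at 3M and 29M in the paired-end samples. The myeloid class I receptor *Pirb* was not called, with 0.36 at 24M and 1.25 ± 0.39 (adjusted p = 0.112, edgeR) at 29M on the log2 scale. For *Cd160*, a receptor on T and NK cells, the 24M value was 0.90 ± 0.31 (adjusted p = 0.0938, edgeR).

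Microglia markers moved with age as well. The 12 markers summed to 437.5 to 499.6 CPM at 3M and 545.2 to 575.9 CPM at 24M, and to 433.2 to 446.9 CPM and 547.5 to 567.3 CPM at 3M and 29M, without overlap in either comparison. Without the fold threshold 7 of the 12 passed at 24M and 8 at 29M, beside 875 of 15683 and 451 of 15097 genes tested. Their median log2 fold changes were 0.32 and 0.35, beside 0.32 and 0.72 for the class I genes. Without 3M replicate 2 the medians at 24M were 0.32 for the microglia markers and 0.67 for the class I genes. That library was chosen by its high values in the class I genes and not by the microglia markers. These medians are therefore not on equal terms. *P2ry12* was called at 24M (0.52) and *Tmem119* at 29M (0.51), both genes of resting microglia, and *Aif1* was not called (0.36 and 0.34). It was called at 24M without 3M replicate 2 (0.56 ± 0.13, adjusted p = 0.0401, edgeR). The 10 endothelial markers summed to 234.4 to 292.4 CPM at 3M and 261.1 to 296.1 CPM at 24M, and to 230.1 to 261.7 CPM and 212.3 to 237.6 CPM at 3M and 29M. *Cldn5*, a tight junction gene among them, was lower at 24M (-0.60 ± 0.13, adjusted p = 0.0242, edgeR). Of 7 astrocyte markers, *Gfap* was the one called, with 0.66 at 24M and 0.80 at 29M. The list as a whole stayed around 0, with a median of 0.006 in the first comparison and 0.017 in the second. Of its 7 genes, 4 and 5 lay above 0, in the same order. Blood genes had medians of 1.32 (24M) and 0.79 (29M) on the log2 scale, with *Hba-a1* and *Alas2* called at 29M. The part of any of these cell types in the class I values was not tested.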

How the data were processed

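PolyA RNA of the hippocampus was made into 17 libraries with a TruSeq kit that does not mark strand, and read as single ends of 50 bases or paired ends of 100. The authors aligned reads to GRCm38.p2 with STAR 2.3.0, counted them per gene with HTSeq and deposited raw counts. Their annotation was not given in the sources used here. Alignments to several places were 22.9% to 26.6% of all in single-end and 10.8% to 12.7% in paired-end libraries. These, and unique reads without a gene (11.2% to 18.2% of unique ones), stayed out of library sizes and tests. Names and positions came from GENCODE.

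Counts were tested here with edgeR 4.0.16 in R 4.3.3 (TMM, filterByExpr, quasi-likelihood, Benjamini-Hochberg) within each experiment, and the difference between ages in a fit of all groups. CPM use the library total over genes that passed the filter, scaled by its TMM factor. The upper limit given for genes with no read covers counting error only, whereas the standard errors of fold changes include the spread between samples. The fits were tested on simulated data. Alternatives were DESeq2 1.42.0, its size factors, other filters, no fold threshold, all groups in 1 fit, summed H2 genes, the 24M pair kept apart or left out, a replicate block and each library left out. Leaving out the pair and summing H2 genes in the difference between ages, and summing H2 genes without 3M replicate 2, were chosen after seeing the data.

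Genes named are the 10, tested class I heavy chains, called genes of every list, and regulators, partners and markers fixed by name; the results of some of these are not reported here. *Pirb*, *Cd160*, *Cd8b1*, *Lck*, *Gbp2* in replicate 2 and the RFX and NF-kB subunits were picked after their values were seen. Members and lists were chosen with earlier results of these data known.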

Additional observations from a re-analysis of the deposited data

Results flagged for a closer look

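In 3M single-end replicate 2, the gap to the nearest of the other 4 samples took more than 0.71 of the group's range for 6 of the 10 genes. This share was 0.848 for *H2-K1*, 0.822 for *H2-D1*, 0.844 for *Tap1*, 0.735 for *Tap2*, 0.853 for *Psmb8* and 0.886 for *Psmb9*. It was 0.864 for the log2 ratio of *Psmb8* to *Psmb5* and 0.808 for that of *Psmb9* to *Psmb6*. Chance passes about 1 in 20 groups, which is 1.3 of the 26 groups looked at, and 8 passed, all through this library. These genes are related, and their flags are not independent of each other. No 24M group passed, and groups of 3 samples were not looked at. Nothing in the labels sets this library apart, and the cause was not tested.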

How the results depend on the processing

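The called genes at 24M, 1 of 10, were 2 with no filter on low counts, with all 4 groups in 1 fit, with the 24M libraries kept apart and with a replicate block on these, 0 without the 24M pair, and 0 to 5 with a library left out (5 without 3M replicate 2, 0 without 3M replicate 1 or 24M replicate 2). Over all genes, the first 4 settings called 265 of 26441, 345 of 16055, 313 of 15749 and 171 of 15749 higher, in this order. Leaving out the pair called 112 of 15818, and leaving out a library 91 to 394 genes. At 29M, 7 of 10, they were 0 with all 4 groups in 1 fit, where 83 of 16055 genes were higher in all. With a library left out they were 4 to 6 (4 without 29M replicate 3), where 113 to 207 genes were higher in all. The cause was not tested. The replicate block changed no call at 29M; same-numbered samples did not deviate together (correlations -0.17 to 0.10), so that they share a number and no more. Without a fold change threshold 8 of the 10 passed at 29M, beside 451 of 15097 genes tested.

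Of 568 values of single genes under an alternative, 526 kept direction and side of the threshold. *H2-T23* at 24M turned to -0.0058 without the pair and ranged from -0.035 (without 3M replicate 3) to 0.22 with a library left out. The difference between ages turned for *B2m* to 0.014 without the pair and ranged there from -0.19 to 0.026, for *Tap1* from -0.0396 to 0.36 and for *Psmb8* from -0.11 to 0.38, both lowest without 3M replicate 2. No alternative gave any of the 10 genes a difference between ages (0 in all). The log2 ratios of proteasome subunits moved by less than their SD. Depth limits *Psmb9* and *Psmb8*, the lowest of the 10.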
